A study of Mus musculus with 6 samples.

Results

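The Ifi200 genes, also called PYHIN genes, lie side by side on mouse chromosome 1 and encode proteins with a pyrin domain, a HIN domain that binds DNA, or both. Ifi203, Ifi204, Mnda, Mndal, Aim2 and Pyhin1 were taken by name from the deposited table of read counts, where they make up 6 of 26814 gene symbols. RNA-Seq was performed on top lip tissue of adult female mice, 2 to 6 months of age, with 1 library from each of 3 Gtf2ird1 knockout mice (KO) and 3 wild type mice (WT). KO mice were homozygous for the germline null allele Gtf2ird1 tm1Hrd. Both genotypes were on a C57BL/6J background, on which the allele had been kept for more than 20 generations. No other allele and no treatment was named for either group. Gtf2ird1 encodes a transcription factor and lies in the region deleted in Williams-Beuren syndrome, and the design compares lip gene expression with and without it.

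Proteins of this family bind double-stranded DNA largely without regard to its sequence, in the cytosol and in the nucleus. AIM2 on DNA gathers the adaptor ASC, the product of Pycard, which activates caspase-1 in the complex known as the inflammasome, and caspase-1 matures interleukin-1β and interleukin-18. Many family members are induced by type I interferon and are best known from macrophages, and AIM2 is also known from keratinocytes of inflamed skin.

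The targeted gene went against its label. Gtf2ird1 had 78.2, 70.2 and 70.7 CPM (counts relative to the TMM-scaled library size) in WT1, WT2 and WT3, and 166, 162 and 144 CPM in KO1, KO2 and KO3. Its log2 fold change was 1.11 ± 0.13 (standard error) at an adjusted p of 0.0018, that is, it was higher and not lower in libraries with the KO label, so every direction below is that of libraries named by their label. Reads of the null allele and of an intact allele fall on the same row of the table. Total counts ranged from 20164081 in KO1 to 29491767 in KO2, and 3 counts, the limit that a count of 0 allows, were 0.0986 to 0.154 CPM. Leaving out KO3 raised the number of genes called (adjusted p under 0.05) from 971 to 4891, so results are also given without single libraries. Over all tested genes KO3 was closer to WT than KO1 and KO2 were. Its log2 CPM correlated with the WT libraries at 0.9483 to 0.9548, and those of KO1 and KO2 at 0.9065 to 0.9328. The study names 1 mouse per library, and p-values set the difference between genotypes against the spread of these libraries within each genotype.

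The promoters of several family members held the same short element, and the sequences are shown because they set the members apart from each other. The interferon-stimulated response element (ISRE), which acts in the response to type I interferon, was searched by its core, the letters GAAA, any 2 bases and GAAA again, on both strands. Promoters were RefSeq entries on GRCm38.p6 that run from 250 bases before to 50 bases after a transcript's start, and 5 of the 6 members, all but Ifi204, matched an entry. The core was found in at least 1 entry of 3 of these 5 genes, against 3.99% of the 27025 genes with an entry, and single entries held it in 3.44% of 32851. In the windows of Ifi203 (chr1:173942508-173942537, minus strand), Mndal (chr1:173880204-173880233, minus strand) and Mnda (chr1:173913064-173913093, minus strand) capitals mark the core, which began 35, 36 and 37 bases before the start.
Ifi203: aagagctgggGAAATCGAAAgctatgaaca
Mndal: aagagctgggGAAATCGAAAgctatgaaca
Mnda: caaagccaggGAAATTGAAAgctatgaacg

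The windows of Ifi203 and Mndal were the same in all 30 bases, so matches in this family are not separate observations. Ifi203 held the core in 1 of 2 entries. Mndal held a further match on the opposite strand in a second entry (chr1:173879993-173880022). Of the 11 PYHIN genes with a promoter entry, which include family genes outside the 6, 8 held the core.

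Aim2 and Pyhin1 held no exact match. Their closest windows matched 7 of the 8 fixed letters, as 35.4% of all promoters did at least, and the capitals below mark the 10 bases compared (Aim2, chr1:173420543-173420572, plus strand, on which the core reads in reverse; Pyhin1, chr1:173630672-173630701, plus strand). The RefSeq start of Aim2 lies inside the longer gene span that GENCODE draws.
Aim2: tgtaactctgTTTCTTTGTCtgagcaagaa
Pyhin1: agatttgtaaGAAAAGCAAAacatatcaat

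Another element, the GAS element of interferon-responsive promoters, was searched as TTCNNNGAA, which is its own reverse complement and occurred in 8.3% of all promoters. None of the 5 members with an entry held it. A match describes letters in a window and not a bound site, and a missing match says only that the letters are not in that window.

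Of the 6 members, 1 passed an adjusted p of 0.05 (edgeR's quasi-likelihood test, Benjamini-Hochberg adjustment over the 15009 genes that reached 1 CPM in 3 or more libraries). That member was Aim2, which was higher in the libraries labelled KO. Over all tested genes 6.47% passed in either direction, 4.38% as higher and 2.09% as lower, so 1 call in 6 is not a result about the family as a whole. At an unadjusted p under 0.05 the count was again 1 of 6, where 29.6% of all tested genes passed. All 6 members passed the filter on low values. The median log2 fold change of all tested genes was -0.02, and those of the members lay between 0.28 and 1.85.

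Aim2, the DNA receptor of the inflammasome (chr1:173350879-173466040, plus strand), had 1.23, 1.91 and 1.93 CPM in WT1, WT2 and WT3. It had 7.21 CPM in KO1, 7.2 in KO2 and 3.84 in KO3. Each library labelled KO was above every WT library, although KO3 stood well below KO1 and KO2. The genotypes did not overlap in 31.5% of all tested genes, and in 13.5% KO lay above WT. The means were 1.69 ± 0.40 CPM in WT and 6.09 ± 1.94 CPM in KO (SD, n = 3 per genotype), and the log2 fold change was 1.85 with a 95% interval of 1.13 to 2.58 (standard error 0.32, adjusted p = 0.014). It ranked 385th by p-value. These levels rest on 34 to 45 reads in each WT library and 84 to 219 in each library labelled KO.

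Its direction did not depend on any single library, but its call did. Without WT1 the adjusted p was 0.0775, without WT3 0.0545 and without KO2 0.0726, at log2 fold changes of 1.66, 1.95 and 1.77. Without KO3 the log2 fold change was 2.1 (adjusted p = 0.000678). In bulk tissue, more cells that express a gene and more RNA per cell cannot be told apart.

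Ifi204 encodes the p204 protein, which is linked to the DNA-sensing adaptor STING in macrophages (chr1:173747293-173766943, minus strand). Its level was 3.88, 5.06 and 4.32 CPM in WT1 to WT3, and 6.24, 6.67 and 3.16 CPM in KO1 to KO3. KO1 and KO2 lay above the WT libraries and KO3 below them, so the genotypes overlapped. The log2 fold change of 0.28 had a 95% interval from -0.39 to 0.96 (adjusted p = 0.541), so neither a rise near 2-fold nor a modest decrease lay outside it.

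Ifi203 was the most abundant member by CPM (chr1:173920407-173942672, minus strand). It had 7.84, 7.69 and 8.86 CPM in WT1 to WT3, and 11.6, 15.9 and 7.77 CPM in KO1 to KO3. Here too KO1 and KO2 were above all WT libraries, while KO3 fell among them. The log2 fold change was 0.54 (95% interval -0.06 to 1.13, adjusted p = 0.201). Without KO3 it was 0.77 with an adjusted p of 0.0142, the only other call of a member in any of the fits made, but 33% of all tested genes were called in that fit.

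Mndal and Mnda are named after the human myeloid cell nuclear differentiation antigen. Mndal (chr1:173849126-173942491, minus strand) had 4.94, 5.06 and 4.72 CPM in WT1 to WT3, and 4.86, 8.25 and 5.03 CPM in KO1 to KO3. Only KO2 stood clear of the WT libraries, and the log2 fold change of 0.31 was not called (95% interval -0.25 to 0.86, adjusted p = 0.413). Mnda, now called Ifi211 (chr1:173896345-173913046, minus strand), had 1.85, 3.36 and 1.57 CPM in WT1 to WT3 and 2.76, 3.45 and 2.15 CPM in KO1 to KO3. The ranges overlapped almost fully, and the log2 fold change was 0.31 (95% interval -0.46 to 1.08, adjusted p = 0.554). Mnda lies within the annotated span of Mndal on the same strand.

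Pyhin1, now called Ifi209 (chr1:173630917-173647928, plus strand), was the least abundant member. It had 0.690, 0.765 and 1.35 CPM in WT1 to WT3, and 1.84, 1.32 and 1.05 CPM in KO1 to KO3, with no library under 18 reads. KO1 was the highest and WT1 the lowest, but KO2 and KO3 were below WT3. The log2 fold change was 0.59 (95% interval -0.24 to 1.41, adjusted p = 0.298), and a change beyond 2-fold still lay inside the interval at this depth.

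**Figure D1:**
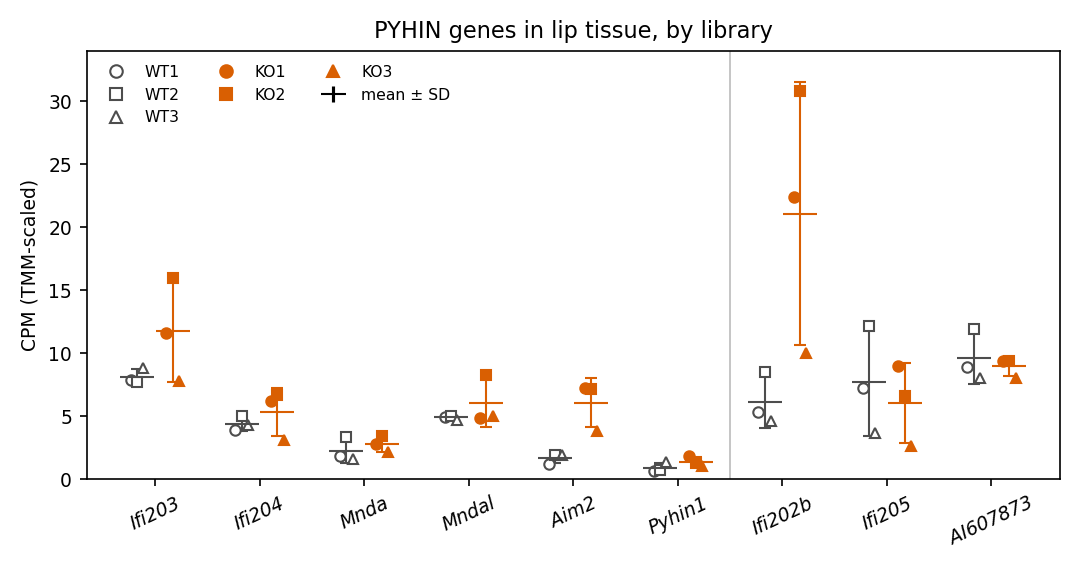
Level of the 9 tested PYHIN genes in each library, in TMM-scaled CPM on a linear axis, with open grey symbols for WT, filled orange symbols for libraries labelled KO, and bars for the mean ± SD of 3 libraries. The 6 members stand left of the vertical line; Aim2 was at 1.23 to 1.93 CPM in WT and 3.84 to 7.21 CPM in KO, with no overlap, while the other 5 members overlapped.

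The members share sequence, and this bears on how reads could be assigned to them. Windows of 100 bases, the read length, were drawn from all transcripts of each gene and looked for in those of other genes. For Aim2 0% were shared, so no stretch of read length was common to Aim2 and a transcript of another gene. For Mnda 56.9% were shared, 37.2% with Ifi205 and 19.6% with Ifi204, which makes its counts uncertain. The shares were 2.84% for Ifi203, 6.38% for Mndal, 10.7% for Ifi204 and 16.9% for Pyhin1, the last with Ifi214, which was not analysed here. Mndal and Ifi203 also shared 37 exon bases on the same strand. Aim2 overlaps Cadm3 on the opposite strand, but their exons share no base.

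The ratio of members within a library does not depend on how libraries were scaled. Per 100 counts of the other 5 members, Aim2 had 6.43, 8.72 and 9.29 counts in WT1, WT2 and WT3, and 26.4, 20.2 and 20.05 counts in KO1, KO2 and KO3. All 3 libraries labelled KO were therefore at more than 2 times the highest WT ratio, KO3 included. The mean log2 ratio differed by 1.45 between the genotypes. Aim2 was singled out for this ratio after its values had been seen, so the ratio is given without a test.

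Compared per length of exon, the order of the members differed between genotypes. In WT, Mndal had 1.35 ± 0.05 CPM per kb, Mnda 1.27 ± 0.54, Ifi204 1.24 ± 0.17 and Ifi203 1.21 ± 0.09 (SD, n = 3). These 4 levels did not differ beyond their spread. Aim2 followed with 0.484 ± 0.114 CPM per kb and Pyhin1 with 0.264 ± 0.102, and the ranges of these 2 met at 0.352 to 0.380. In the libraries labelled KO, Aim2 reached 1.74 ± 0.56 CPM per kb, next to Ifi203 at 1.76 ± 0.61 and Mndal at 1.67 ± 0.53, and its range of 1.10 to 2.06 overlapped those of the same 4 genes. Pyhin1 remained lowest in the libraries labelled KO at 0.396 ± 0.113. The exon lengths include sequence shared with other genes, while the paper describes counts of uniquely mapped reads. Levels per kb could therefore be too low for Mnda (56.9% of windows shared), Pyhin1 (16.9%) and Ifi204 (10.7%).

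Beyond the 6, another 8 rows of the table carried symbols of PYHIN genes, and 3 of them were tested. Ifi202b, whose protein has a pair of HIN domains but no pyrin domain and restrains the AIM2 inflammasome (chr1:173962568-173982744, minus strand), had 5.34, 8.54 and 4.59 CPM in WT1 to WT3. It had 22.4, 30.8 and 10.01 CPM in KO1 to KO3, again without overlap and again with KO3 the lowest of the 3. Its log2 fold change was 1.78 (95% interval 0.83 to 2.72, adjusted p = 0.0442). Leaving out any library but KO3 took the adjusted p above 0.05, to between 0.0676 and 0.174, and the call was also lost with limma-voom and with scaling by library size alone. Ifi202b, like Aim2, shared 0% of its 100-base windows with other genes.

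Of the 11 PYHIN genes with a promoter entry, the 3 without the ISRE core were Aim2, Ifi202b and Pyhin1, the last of which was not called. Of the 8 with the core, Gm4955, Pydc3 and Pydc4 were too low to be tested, so they could not be called. The promoters were read with the calls known, and a link between the core and a call was not tested. Ifi202b alone of the 11 held the GAS letters, 148 bases before the start (chr1:173982974-173983002, minus strand). The best ISRE window of Ifi202b matched 7 of 8 fixed letters as well. The window with the GAS letters in capitals is given beside that of Ifi205, a neighbour with an ISRE core 134 bases before its start and another after it (the first shown, chr1:174031870-174031899, minus strand).
Ifi202b: ctgtcatgatTTCTCAGAAtaactactga
Ifi205: ccaggccaggGAAATTGAAAgctatgaaca

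Ifi205 had 7.26, 12.2 and 3.64 CPM in WT1 to WT3 and 8.95, 6.61 and 2.65 CPM in KO1 to KO3. Its log2 fold change was -0.35 (95% interval -1.51 to 0.82, adjusted p = 0.672), and its WT libraries covered the widest range in CPM of the tested PYHIN genes. AI607873, now called Ifi207, had 8.89, 11.9 and 8.05 CPM in WT1 to WT3 and 9.42, 9.40 and 8.05 CPM in KO1 to KO3. With a 95% interval of -0.55 to 0.35 around a log2 fold change of -0.10 (adjusted p = 0.753), a change in AI607873 as large as that of Aim2 lay outside the interval.

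The remaining 5 rows were too low to be tested. Pydc3 and Pydc4, which encode family proteins and are now called Ifi208 and Ifi213, had 0 to 9 reads in WT and 9 to 28 reads in the libraries labelled KO. In CPM both were higher in each library labelled KO than in every WT library, as were 13.5% of the tested genes. For Pydc3 this rested on library scaling, since WT1, WT3 and KO1 had 9 reads each. Gm4955 (Ifi206) had 3 to 4 reads in WT and 3 to 13 in KO, the pseudogene Gm16340 (Ifi203-ps) 14 to 30 and 11 to 49, and BC094916 a single read in KO3.

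Summed over the 6 members, the level was 20.4, 23.9 and 22.8 CPM in WT1 to WT3 and 34.5, 42.8 and 23.0 CPM in KO1 to KO3. The sum in KO3 lay within the WT range, while those in KO1 and KO2 were above it. Over all 14 PYHIN rows the sums were 43.6, 58.2 and 40.4 CPM in WT and 77.6, 93.0 and 46.1 CPM in KO, and Ifi202b made up 11.4% to 14.7% of the reads in WT and 21.7% to 33.1% in KO.

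**Figure D2:**
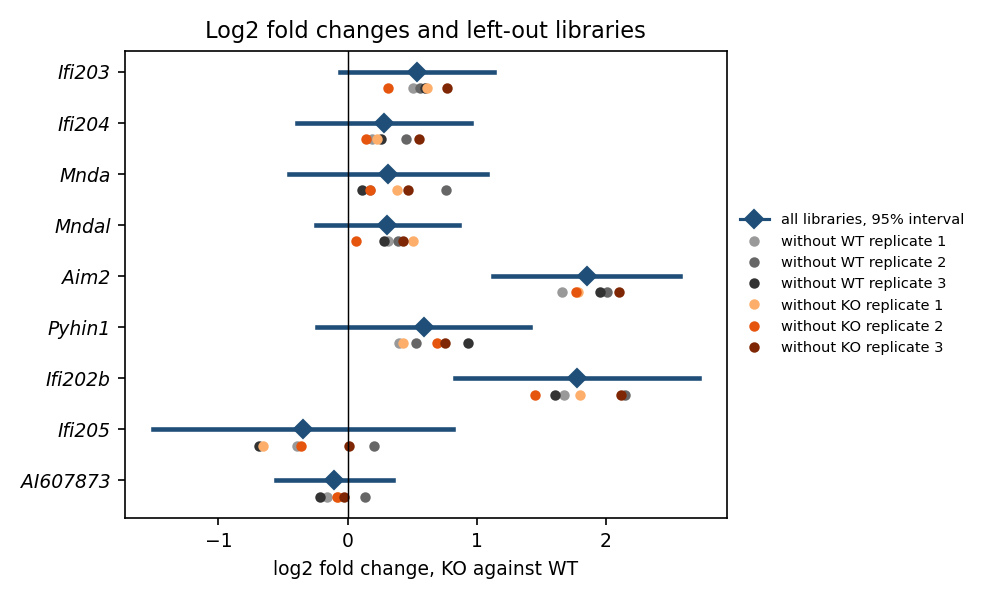
Log2 fold change of each tested PYHIN gene, libraries labelled KO against WT, as diamonds with the 95% interval from edgeR's quasi-likelihood fit, and as circles below them with 1 library left out at a time. Only the intervals of Aim2 (1.13 to 2.58) and Ifi202b (0.83 to 2.72) lie clear of 0, and the circles of the 6 members all lie above 0.

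The 13 of 14 PYHIN rows found in the GENCODE annotation of GRCm38 spanned 681 kb. Aim2 stands at one end of the row and Ifi202b near the other, and the tested genes between them (Pyhin1, AI607873, Ifi204, Mndal, Mnda and Ifi203) had log2 fold changes from -0.10 to 0.59, none of them called. Within 300 kb of the outermost of the 6 members were 36 other annotated genes. Many of them were olfactory receptors and 1 was the PYHIN gene Ifi214, and 3 of the 36 were tested. None was called by the quasi-likelihood test, and 2 had an unadjusted p under 0.05, against 29.6% of all tested genes. Cadm3, a cell adhesion molecule whose span overlaps Aim2, had a log2 fold change of -0.98 (adjusted p = 0.0571). It was called lower by edgeR's exact test, DESeq2 and limma-voom, which called 14.9%, 14.2% and 6.3% of all genes. The log2 fold changes of the other 2 were -0.84 for Darc, now Ackr1 (adjusted p = 0.139), and -0.30 for Fcer1a (adjusted p = 0.576).

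**Figure D3:**
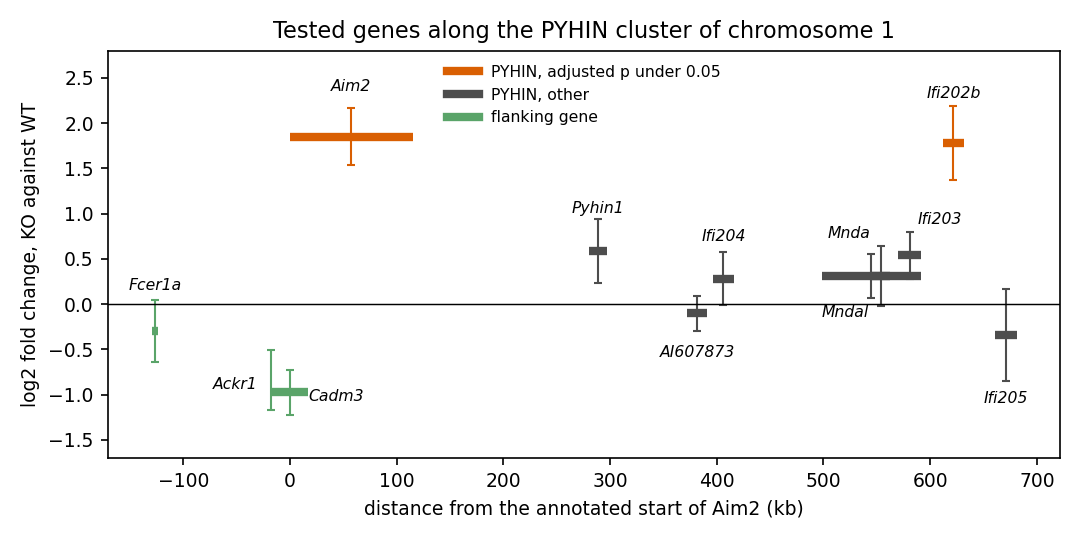
Log2 fold change (libraries labelled KO against WT, ± standard error) of tested genes along the cluster, drawn over each gene's annotated span in kb from the start of Aim2. Aim2 at 1.85 and Ifi202b at 1.78 stand above the 6 tested PYHIN genes between them, which lie from -0.10 to 0.59, and above the 3 flanking genes, which lie below 0.

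The libraries labelled KO did not rank alike for PYHIN genes and for other interferon-stimulated genes, a pattern noticed after the values had been seen. KO3 had the lowest level of the 3 in 5 of the 6 members, the exception being Mndal, and in 8 of the 9 tested PYHIN genes. Of all 657 genes called higher, 65% were lowest in KO3, and of all tested genes 41.8%. Of 27 called genes from a list of 32 interferon-stimulated genes such as Oas1a, Ifih1 and Isg15, 24 were lowest in KO1 and 3 in KO3. No test was made of this difference, since the members share their libraries.

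**Figure D4:**
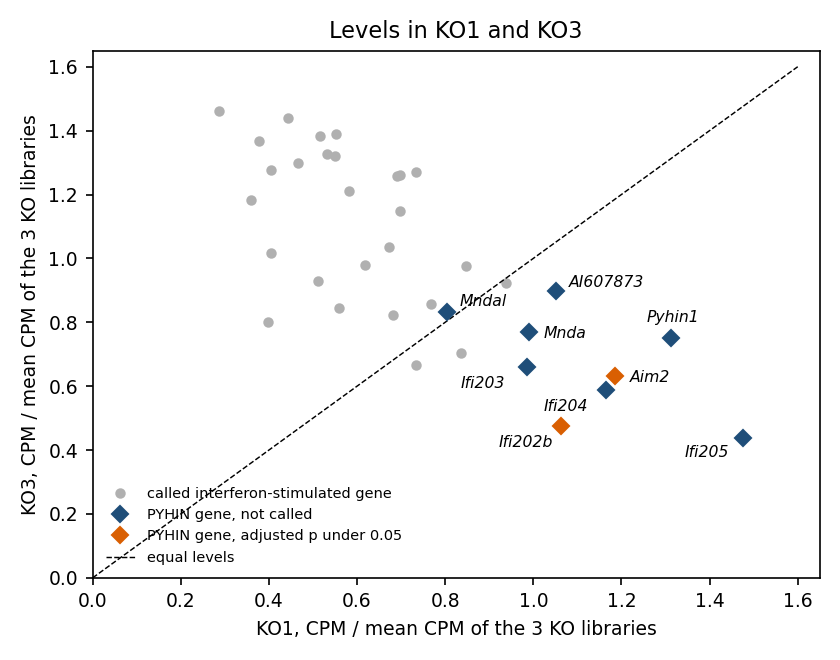
Level in KO3 against level in KO1, each divided by the mean CPM of the 3 libraries labelled KO, for the 9 tested PYHIN genes (diamonds) and 27 called interferon-stimulated genes (grey circles). Of the PYHIN genes 8 lie below the dashed line of equal levels, and of the grey circles 24 belong to genes with their lowest level in KO1.

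The genes that act with AIM2 were read from the same fit. Pycard, the adaptor ASC, had 80.2 ± 2.0 CPM in WT and 99.3 ± 8.4 in KO (log2 fold change 0.31, adjusted p = 0.142). Casp1 had a log2 fold change of 0.85 (adjusted p = 0.143), Il18 of 0.62 (adjusted p = 0.166) and Gsdmd, the pore-forming substrate of inflammatory caspases, of 0.17 (adjusted p = 0.548). None of these 4 passed the test. Il1b, which encodes interleukin-1β, rose in the libraries labelled KO from 0.725 ± 0.146 to 3.00 ± 0.92 CPM (log2 fold change 2.03, adjusted p = 0.0113). Casp4, the caspase of the non-canonical inflammasome, rose as well (log2 fold change 1.5, adjusted p = 0.0499), as did the ATP-gated channel gene P2rx7 (1.05, adjusted p = 0.0419). Of the 28 inflammasome genes tested, 3 were called higher and none lower, with a median log2 fold change of 0.29. Over all tested genes 4.38% were called higher and 2.09% lower. Of these 3 calls limma-voom kept that of Il1b alone, so those of Casp4 and P2rx7 depended on the tool.

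In the list of cytosolic DNA sensing genes, 9 of 38 were called higher, against 4.38% of all tested genes, and none lower. The median log2 fold change of this list was 0.53. The 3 with the lowest p were Samhd1 (1.05), a phosphohydrolase of deoxynucleotides, the helicase gene Ddx60 (2.87) and Mlkl (1.24), the effector of necroptosis. Zbp1, a sensor of Z-form nucleic acid, rose by 2.03 on the log2 scale (adjusted p = 0.0156). The core of the other major DNA-sensing route was not called by the quasi-likelihood test. Mb21d1, which encodes the synthase cGAS, had a log2 fold change of 0.64 (adjusted p = 0.0925), Tmem173, which encodes STING, -0.05 (adjusted p = 0.875), Tbk1, its kinase, 0.59 (adjusted p = 0.122) and Irf3 -0.03 (adjusted p = 0.866). Mb21d1 was above WT in each library labelled KO, as were 13.5% of all tested genes. It was called higher by DESeq2, though not by the exact test or limma-voom. Of 9 tested genes in a list of deoxyribonucleases and subunits of ribonuclease H2 (Rnaseh2a, Rnaseh2b and Rnaseh2c), none was called. An unadjusted p under 0.05 was found for 2 of them, against 29.6% of all tested genes. These were Trex2 (log2 fold change 0.79, adjusted p = 0.0835) and Dnase2a (-0.34, adjusted p = 0.151). Trex2 was called higher by edgeR's exact test and by DESeq2, which called 14.9% and 14.2% of all genes. Next by p was Dnase1l2 (0.36, adjusted p = 0.245).

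Among interferons, receptors and signal transducers, 6 of 20 tested genes were called higher, against 4.38% of all tested genes. The median log2 fold change of the 20 was 0.18. The 6 included Usp18 (3.91), Irf7 (1.98), Irf9 (1.84), Stat2 (1.6) and Jak1 (0.62). The receptor genes Ifnar1 (0.12, adjusted p = 0.578) and Ifnar2 (0.07, adjusted p = 0.814) were not called. Interferon ligands were too low to test. Ifnk, the interferon of keratinocytes, had 1, 4 and 8 reads in WT1 to WT3 and 14, 22 and 10 in KO1 to KO3. Ifna13 had 0, 2 and 0 against 12, 19 and 3, and Ifna2 0, 0 and 0 against 4, 2 and 1. Other ligands did not separate the genotypes: Ifnz had 2, 3 and 1 against 2, 0 and 2, and Ifnab 1 read, in WT3. Ifng, Ifnl2 and Ifnl3 had 0 to 3 reads in any library. Ifnb1 and Trex1 were not analysed here. Of the 32 interferon-stimulated genes, 27 were called higher, with a median log2 fold change of 2.1, above that of every member.

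**Figure D5:**
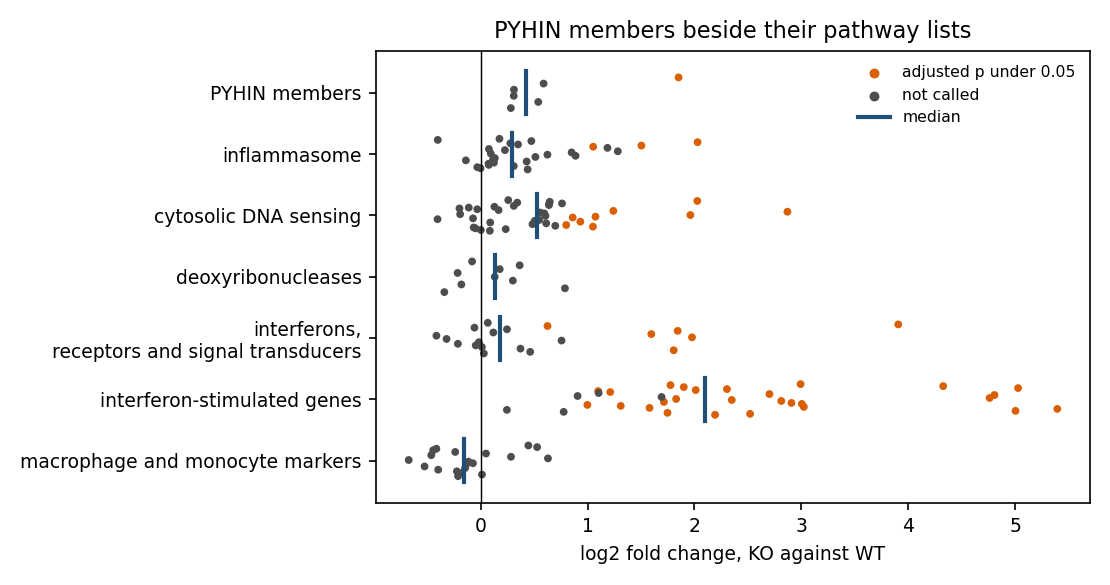
Log2 fold change, libraries labelled KO against WT, of each tested gene of 7 lists, with orange points for an adjusted p under 0.05, grey points for the rest and a blue bar for the list's median; points are spread vertically for legibility. Aim2 is the 1 orange point among the 6 members, 27 of 32 interferon-stimulated genes are orange, and none of 20 macrophage and monocyte markers is.

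Markers of cells that could carry PYHIN transcripts were read beside these results, and their part in them was not tested. Of 20 tested macrophage and monocyte markers none was called, by the quasi-likelihood test or by the 3 other tools. Of the 20, 4 had an unadjusted p under 0.05, against 29.6% of all tested genes. The markers did not move one way: 14 log2 fold changes were negative and 6 positive, with a median of -0.16. The complement gene C1qc (-0.67, adjusted p = 0.143), C1qa (-0.53, adjusted p = 0.167) and the lysozyme gene Lyz2 (-0.40, adjusted p = 0.159) were among the 4. Lyz2 was lower in each library labelled KO than in every WT library, where 31.5% of all tested genes did not overlap in either direction. The fourth was Ccr2, a chemokine receptor of monocytes, with a positive log2 fold change (0.63, adjusted p = 0.162). Ccr2 had 9.36, 13.6 and 12.8 CPM in WT1 to WT3 and 17.4, 25.1 and 12.7 CPM in KO1 to KO3, so that KO1 and KO2 stood above WT and KO3 among the WT libraries, as for Ifi203. Mpeg1 (0.45, adjusted p = 0.176), Cx3cr1 (0.53, adjusted p = 0.394) and Fcgr1 (0.28, adjusted p = 0.608) were also positive. Csf1r (-0.22, adjusted p = 0.537), Cd68 (-0.07, adjusted p = 0.781) and Emr1 (-0.14, adjusted p = 0.765) were not called, and all were present in each library. The summed level of all 21 rows of this list was 657 to 722 CPM in WT and 495, 521 and 713 CPM in KO1, KO2 and KO3. Lyz2 was the largest part of that sum, at 222 ± 4 CPM in WT and 169 ± 37 CPM in KO.

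The markers of T, NK and B cells summed to 23.0 to 31.0 CPM in WT and 34.5 to 45.3 CPM in KO, and the 7 that were tested had a median log2 fold change of 0.67. None was called and 2 had an unadjusted p under 0.05, against 29.6% of all tested genes. The exact test called Cd4, and DESeq2 called Cd4 and Ptprc, where these tools called 14.9% and 14.2% of all genes. The 3 with the lowest p were Cd4 (1.01, adjusted p = 0.0784), Ptprc (0.67, adjusted p = 0.115) and the T cell receptor gene Trbc1 (0.67, adjusted p = 0.225). Ptprc, the common leukocyte antigen, had 20.7, 26.0 and 14.5 CPM in KO1 to KO3, against 10.2 to 14.2 CPM in WT. Each was above WT, as in 13.5% of all tested genes, with KO3 the lowest of the 3. Ptprc was the largest part of the sum above, at 12.8 ± 2.2 CPM in WT and 20.4 ± 5.8 CPM in KO. That sum is therefore not a measure of lymphoid cells alone. Cd3e had a log2 fold change of 0.21 (adjusted p = 0.753). Of 10 dendritic and Langerhans cell markers 1 was called, against 6.47% of all tested genes. It was Cd207, which encodes langerin (1.81, adjusted p = 0.000932). Next by p were the integrin gene Itgax (0.56, adjusted p = 0.138) and H2-Eb1 (0.49, adjusted p = 0.236), of antigen presentation. The sum of this list was 838 to 1050 CPM in WT and 829, 1110 and 1492 CPM in KO1, KO2 and KO3. Cd74 was its largest part, at 334 ± 52 CPM in WT and 405 ± 157 CPM in KO. Cd207 had 3.67 ± 0.58 CPM in WT and 12.9 ± 0.5 CPM in KO.

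Of 11 neutrophil and mast cell markers none was called and 4 had an unadjusted p under 0.05, against 29.6% of all tested genes. The exact test, which called 14.9% of all genes, called Tpsb2 lower. The mast cell genes Kit (-0.59, adjusted p = 0.079), Mcpt4 (-0.57, adjusted p = 0.0917) and Tpsb2 (-0.73, adjusted p = 0.1002) had the lowest p. Kit and Mcpt4, 2 of the 11, were below WT in each library labelled KO. The genotypes did not overlap in 31.5% of all tested genes, and in 13.5% KO lay above WT. The sums of this list were 213 to 271 CPM in WT and 173 to 288 CPM in KO, and S100a8 reached 1266 reads in KO1.

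Keratinocyte markers, the defining transcripts of lip epidermis, summed to 34190 to 39520 CPM in WT and 62320, 53870 and 46020 CPM in KO1, KO2 and KO3, in which KO3 was again the lowest. Krt1 and Krt10, keratins of the differentiating layers, carried most of this difference. Krt1 had 8019 ± 1307 CPM in WT and 18219 ± 4113 CPM in KO (adjusted p = 0.0584), and Krt10 8715 ± 968 and 13574 ± 2544 CPM (adjusted p = 0.163). Of the 18, 1 was called, against 6.47% of all tested genes, and 8 had an unadjusted p under 0.05, against 29.6%. The called gene was the differentiation gene Ivl (1.55, adjusted p = 0.0292). Next by p were the desmosome genes Dsg3 (0.71, adjusted p = 0.0505) and Dsc1 (1.19, adjusted p = 0.0531). The basal keratins Krt5 (-0.04, adjusted p = 0.918) and Krt14 (0.15, adjusted p = 0.631) were not called. The exact test and DESeq2 each called 6 of the 18 higher, namely Ivl, Dsc1, Dsg3, Flg, Krt1 and Krt10, and limma-voom called Ivl and Krt1. Over all genes these tools called 14.9%, 14.2% and 6.3% in either direction.

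The genes whose profile was most like that of each member were found by the root mean square distance between log2 CPM profiles over the 6 libraries, each centred on its own mean. For Aim2 these were Gm13086 (0.0631), Lonp2 (0.109) and 5730577I03Rik (0.116), all called higher themselves. For Ifi204 they were Gm6710 (0.0452), Ccdc77 (0.0455) and Ubn2 (0.0521), and for Ifi203 they were 9930021J03Rik (0.101), Ift81 (0.102) and Wdr44 (0.108). Mnda was nearest to Dsn1 (0.0651), Gimap8 (0.0839) and Palb2 (0.108), and Mndal to Fbxo5 (0.0727), Tlr8 (0.105) and Cep41 (0.113). Pyhin1 was nearest to Cep128 (0.106), Il7 (0.112) and Lrrk2 (0.128). Apart from those of Aim2, none of these genes was called. Genes so close in profile have similar log2 fold changes in the same libraries, so these calls largely follow from how the genes were picked. No family member was among the 3 nearest genes of another. Within the family, the smallest distance to Aim2 was that of Ifi202b at 0.361, and the largest distance of Aim2 to a member was 0.836, to Mndal. Ifi203 lay 0.229 from both Ifi204 and Mndal. With 6 libraries and 15009 genes such distances only describe these libraries.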

How the data were processed

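RNA was extracted by the authors from top lip tissue with TRI-reagent, and paired-end reads were mapped to GRCm38 with TopHat2 2.0.8 and Bowtie2 2.1.0. The deposited values are counts of uniquely mapped reads that HTSeq-count gave each gene, without normalization. The mode and strand setting of HTSeq-count are not given in the sources used here. All 6 columns were used. Genes that reached 1 CPM in 3 or more libraries were tested with R 4.3.3 and edgeR 4.0.16 (TMM, glmQLFit with legacy=FALSE, glmQLFTest), and the design used genotype alone. The adjusted p-values are Benjamini-Hochberg values over all 15009 genes, with a threshold of 0.05. The alternatives, run with edgeR, limma 3.58.1 and DESeq2 1.42.0, are named in the closing section. The procedure was tested on simulated data.

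The members and the gene lists were chosen with earlier results of these data known. Genes were named by a rule: the members, Gtf2ird1, every other PYHIN row, a fixed choice of pathway genes and markers, the 3 genes of each list with the lowest p, the 3 profiles nearest to each member (log2 CPM, prior count of 2), and tested genes within 300 kb. Genes that make up a count of 6 or fewer, and interferon ligands besides Ifnk, were also named, after their values were seen. Values of some genes of the lists are not reported here. Positions, exons and shared windows come from GENCODE, promoters from RefSeq on GRCm38.p6. Limits from 3 counts cover counting error only. Python 3.11.15 and matplotlib 3.10.9 drew the figures.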

Additional observations from a re-analysis of the deposited data

How the results depend on the processing

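Of the 6 members 1, Aim2, was called with all libraries and under each of 12 alternatives: edgeR's exact test, DESeq2, limma-voom, the older and the robust quasi-likelihood fits, normalization by DESeq2's size factors, by upper quartile and by library size alone, no filter, at least 10 counts in every library, a block for replicate number, and an adjusted p under 0.1. The log2 fold change of Aim2 stayed within 1.79 to 1.90 (adjusted p 1.4e-06 to 0.0339). With each library left out in turn, 0 to 2 members were called: Aim2 alone without WT2 or KO1 (3.64% and 2.17% of all genes called), Aim2 and Ifi203 without KO3 (33%), and none without WT1, WT3 or KO2 (2.32%, 2.44% and 1.53%). All 6 members kept a positive log2 fold change in every fit. Ifi202b was called in 10 of 12 alternatives, with adjusted p of 0.0633 under limma-voom and 0.0526 under library size alone. With libraries left out, the log2 fold change of Ifi205 ran from -0.68 to 0.21, changing sign without WT2 and without KO3 (0.01), and that of AI607873 from -0.22 to 0.14, changing sign without WT2.

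The number of genes called was 971, against 2238 with the exact test, 2409 with DESeq2, 2529 at an adjusted p under 0.1 and 226 to 4891 with a library left out. Inflammasome genes called were 3, against 6 with the exact test, 5 with DESeq2 and 1, Il1b, with limma-voom, and cytosolic DNA sensing genes 9, against 11, 16 and 8. The scalings moved the median log2 fold change of all genes to between -0.08 and 0.02. Replicate numbers did not pair the libraries: the deviations of same-numbered libraries correlated at -0.192, 0.293 and 0.312, and WT2 correlated more with KO1 (0.407). The fit with the replicate block called 797 genes and 1 member, Aim2. At 18 to 45 reads in WT, the levels of Pyhin1 and Aim2 are limited by depth as well as by 3 mice per genotype, and changes in the other members smaller than their intervals were not detectable. The cause of the lost calls was not tested.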
